A study of Mus musculus with 11 samples.

Results

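The semaphorins, their plexin receptors and the neuropilins that help bind them form 1 guidance-cue family, and its transcripts were followed through 11 RNA-seq libraries of SMB21, a mouse medulloblastoma cell line grown as neurospheres. Members were taken by symbol: table entries beginning with Sema and a class number from 3 to 7, entries beginning with Plxn and a letter from a to d, and Nrp1 and Nrp2. The rule found 31 of the 22619 named genes, made up of 20 semaphorins, 9 plexins and 2 neuropilins. Plxna2 and Sema3e were singled out with earlier results of these data known.

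All groups shared the SMB21 line, the Ptch mutant genotype and the Ptch1tm1Mps/J strain background, and the labels give the age as adult. Ptch1 is the receptor that holds Smoothened in check, so Hedgehog signalling runs without ligand when it is lost. The groups were parental cells given sonidegib, a Smoothened inhibitor, for 24 h (n = 2), Sufu mutant clones (n = 2), Ofd1 mutant clones (n = 4) and untreated parental cells (n = 3). Both kinds of clone came out of a transposon mutagenesis screen for resistance, and no label states whether drug was present while they grew. The Sufu libraries are the clones R13 and R1, 1 library each. The Ofd1 libraries are clone R14 as replicates 1 and 2, clone R16 and clone R25, so that 4 libraries stand for 3 clones. The 3 parental libraries enter each comparison with untreated cells and the 2 sonidegib libraries enter each comparison with treated cells, so these comparisons are not independent of each other.

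Semaphorins are extracellular or membrane-bound cues that steer axons, migrating neurons and vessels. Class 3 semaphorins are secreted, classes 4, 5 and 6 span the membrane, and class 7 is held on the surface by a lipid anchor. Plexins carry the signal into the cell through a cytoplasmic domain that acts on small GTPases, and most class 3 semaphorins need a neuropilin beside the plexin; neuropilins are also co-receptors for vascular endothelial growth factors. In the mouse cerebellum, where Hedgehog signalling drives the granule cell precursors from which this tumour type arises, Plxna2 with Sema6a and Plxnb2 with class 4 semaphorins are known for their part in granule cell development.

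The promoters of 3 members are shown because the results turn on them. Plxna2 was the member that differed between treated and untreated parental cells, Nrp2 had the largest called difference between Ofd1 clones and treated cells, and Sema3e reached a mean of 1 CPM in Sufu clones and in no other group. CPM is the counts-per-million value on a library size scaled by the trimmed mean of M-values. Each promoter is the RefSeq window of 300 bases on GRCm38.p6, 250 before the annotated start and 50 after it, on the plus strand: Nrp2 at chr1:62703067-62703366, Plxna2 at chr1:194619579-194619878 and Sema3e at chr5:14025026-14025325. The counts were made on mm9, and these coordinates come from the sequence table alone. Capitals mark a match, with at most 1 mismatch, to the Gli binding motif GACCACCCA or its reverse complement TGGGTGGTC.
Nrp2: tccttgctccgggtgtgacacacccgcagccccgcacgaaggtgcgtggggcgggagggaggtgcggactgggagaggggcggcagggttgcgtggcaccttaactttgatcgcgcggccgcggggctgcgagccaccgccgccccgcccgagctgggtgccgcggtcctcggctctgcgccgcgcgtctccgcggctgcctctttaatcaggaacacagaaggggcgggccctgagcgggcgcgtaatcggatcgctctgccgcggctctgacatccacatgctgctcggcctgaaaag
Plxna2: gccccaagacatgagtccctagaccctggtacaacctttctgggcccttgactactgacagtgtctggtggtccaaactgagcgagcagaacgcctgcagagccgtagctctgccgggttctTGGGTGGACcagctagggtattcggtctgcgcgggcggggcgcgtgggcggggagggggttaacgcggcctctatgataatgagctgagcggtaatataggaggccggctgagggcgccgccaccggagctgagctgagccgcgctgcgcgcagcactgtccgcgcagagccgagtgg
Sema3e: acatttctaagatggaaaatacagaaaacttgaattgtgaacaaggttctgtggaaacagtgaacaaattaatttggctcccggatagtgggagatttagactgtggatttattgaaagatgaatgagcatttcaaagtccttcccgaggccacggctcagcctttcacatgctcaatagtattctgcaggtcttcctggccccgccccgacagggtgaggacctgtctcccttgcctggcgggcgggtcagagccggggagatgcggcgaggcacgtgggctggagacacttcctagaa

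The table matched 26 of the 31 members with 37 windows. None of the 37 held the exact motif on either strand (0%), against 0.253% of all 32851 windows. With 1 mismatch allowed, 4 family windows held it (10.8%), against 6.74% of all windows. Those 4 belonged to Plxna2, Sema4b, Sema6b and Sema6c, and the Plxna2 match began at position -128 relative to the start. The windows also differed in base composition: the Nrp2 window held 37 CpG dinucleotides, the Plxna2 window 25 and the Sema3e window 11, where the median was 15 over the family windows and 7 over all windows. A letter match describes the window and says nothing of binding.

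Libraries held between 24308451 and 38241595 counts. Gli1, a transcription factor and target at the end of the Hedgehog pathway, stood at 7.68 and 8.82 CPM after sonidegib, against 219.6 to 242.6 CPM in untreated parental cells. Its level was 228.7 and 238.3 CPM in Sufu clones and 69.9 to 186.7 CPM in Ofd1 clones. Ofd1, which encodes a centrosome and cilium protein, was at 9.27 to 23.4 CPM in the 4 Ofd1 libraries and 35.4 to 42.9 CPM in parental libraries. Sufu, which encodes an inhibitor of Gli proteins, stood at 2.76 CPM in R13 but at 17.7 CPM in R1, against 27.7 to 29.6 CPM in parental libraries. The 4 Ofd1 libraries had 12, 12.4, 15.7 and 19.2 CPM of Sufu, so the level in R1 lay within their range. Sufu was also low in sonidegib replicate 2, at 5.6 CPM, against 24.8 CPM in sonidegib replicate 1. Sonidegib replicate 2 and parental replicate 3 stood apart from their groups across the transcriptome. Values without them stand beside the results of some named members. Results given without such values are not shown to hold when these libraries are left out. The standard deviation of log2 differences over 10941 genes was 0.903 between the 2 sonidegib libraries, against 0.224 between parental replicates 1 and 2. Across 11905 genes, the Spearman correlation of level with transcript length was 0.18 to 0.229 in the other 10 libraries and -0.0333 in sonidegib replicate 2; genes are not independent replicates. Parental replicate 3 differed from parental replicates 1 and 2 with standard deviations of 0.551 and 0.556. All 10 listed granule lineage markers were at 1 CPM or more in each library, with sums of 3603.4 to 3990.2 CPM after sonidegib, 2040.1 to 2139.4 CPM in Sufu clones, 2115.9 to 2654.8 CPM in Ofd1 clones and 2454.5 to 2694.3 CPM in parental cells. Of the listed markers, 5 of 6 for endothelium, 5 of 6 for macrophages and microglia and 4 of 5 for fibroblasts and pericytes stayed under 1 CPM in each library, and their part in the results was not tested. The endothelial exception was Cdh5, at 0.335 ± 0.285 CPM after sonidegib, 1.99 ± 0.153 CPM in Sufu clones, 5.27 ± 4.85 CPM in Ofd1 clones and 3.85 ± 4.32 CPM in parental cells (SD, n = 2, 2, 4 and 3), while Cldn5 had 0 counts in each library. The endothelial sums were 0.834 to 1.4 CPM after sonidegib, 2.36 to 3.07 CPM in Sufu clones, 3.22 to 13.6 CPM in Ofd1 clones and 1.91 to 9.89 CPM in parental cells. Of 6 oligodendrocyte lineage markers, Mbp and Mog were under 1 CPM in each library, and the list had sums of 10.5 to 10.6 CPM after sonidegib, 16.4 to 18.1 CPM in Sufu clones, 15.2 to 19.9 CPM in Ofd1 clones and 10.7 to 13.1 CPM in parental cells. Olig2 of that list was at 0.176 ± 0.0809 CPM after sonidegib, 2.99 ± 0.882 CPM in Sufu clones, 1.05 ± 0.781 CPM in Ofd1 clones and 0.496 ± 0.041 CPM in parental cells.

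Most of the family was transcribed in these cells. In all, 27 of the 31 members reached a mean of 1 CPM in at least 1 of the 4 groups: 8 of 9 plexins, both neuropilins and 17 of 20 semaphorins. In each of the 11 libraries, 21 members stood at 1 CPM or more, among them 7 plexins, both neuropilins and 12 semaphorins. Of the other 10 members, 6 were class 3 semaphorins, of whose 7 members only Sema3f was at 1 CPM or more in all 11 libraries, and 4 were Plxna4, Plxnb3, Sema4a and Sema5a. Sema3a, Sema3c and Sema3d reached 1 CPM in no library, with at most 6 counts in any of them. Plxna4, which with Nrp1 forms a receptor for Sema3a, ranged from 0.0298 to 1.97 CPM and had no group mean at 1 CPM.

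Per kilobase of exon, the levels had a clear order. Plxnb2 stood first at 207.4 CPM per kb over the 11 libraries, followed by Sema7a at 98.5, Plxnc1 at 74.1, Plxnd1 at 33.3, Plxna2 at 23.9 and Sema6d at 17.7 CPM per kb. Plxnc1 is the receptor for Sema7a, so a semaphorin and its receptor were both among the 3 members with the highest level per kb. Nrp1 followed at 12.9 and Nrp2 at 7.94 CPM per kb. Plexins held most of the family's counts: they summed to 2014.2 and 1619.5 CPM after sonidegib, 2815.2 and 3273.5 CPM in Sufu clones, 2550.3 to 3386.7 CPM in Ofd1 clones and 2449.3 to 2629.2 CPM in parental cells. Semaphorins summed to 1130.6 and 953.1 CPM after sonidegib, 622.2 and 734.4 CPM in Sufu clones, 531.5 to 858.6 CPM in Ofd1 clones and 610.7 to 790.6 CPM in parental cells. Each treated library thus had a lower plexin sum and a higher semaphorin sum than each of the other 9 libraries. The semaphorin difference rested on Sema7a, at 581.3 and 578.1 CPM after sonidegib and 178.1 to 375.3 CPM in the other 9 libraries. The sums of classes 3, 4, 5 and 6 each overlapped between the treated and the other libraries. These are bulk RNA values, in which fewer cells of a type and less RNA per cell cannot be told apart.

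**Figure D1:**
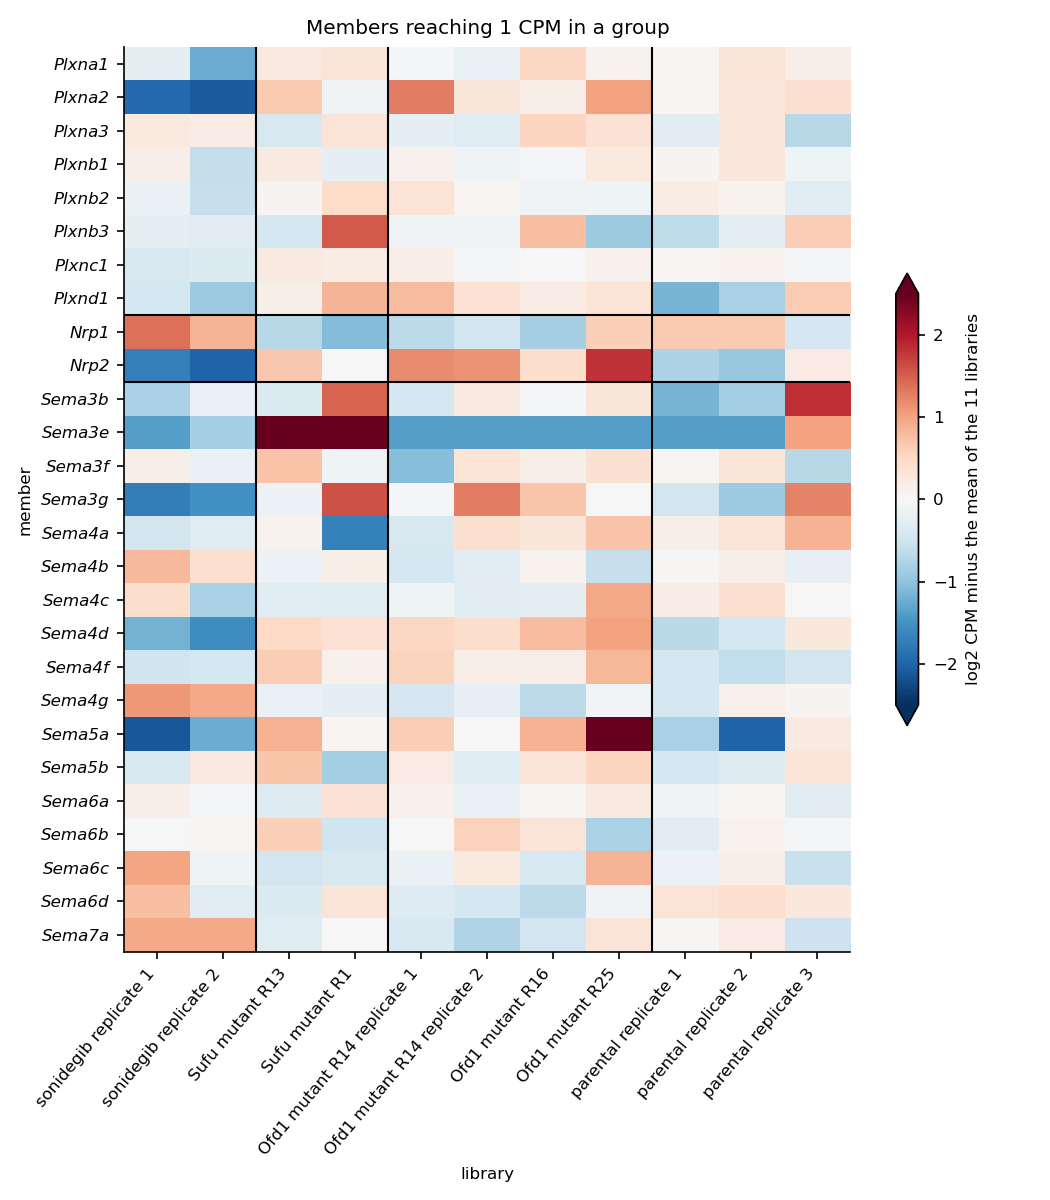
Log2 CPM of the 27 members that reached a mean of 1 CPM in a group (rows: plexins, neuropilins, semaphorins) in each of the 11 libraries (columns), minus that member's mean over the 11 libraries; red is higher and blue is lower, and lines separate groups and receptor classes. Plxna2 and Nrp2 are lowest in the 2 sonidegib libraries, Sema3e is high in the 2 Sufu clones, and Sema5a is highest in clone R25.

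Sonidegib against untreated parental cells asks what 24 h of Smoothened inhibition did to these transcripts. Plxna2 fell after treatment and was the only member called by edgeR. Of the 27 members that passed the count filter, this 1 had an adjusted p under 0.05 in edgeR's quasi-likelihood test with Benjamini-Hochberg adjustment over 13809 genes, where 0.0652% of all genes were called. At an unadjusted p under 0.05 there were 9 members, where 14% of all genes were. DESeq2 called 4, where it called 5.15% of the genes it gave an adjusted p: Plxna2 and Nrp2 lower, and Sema4g (log2 fold change 1.05, adjusted p = 0.0125) and Sema7a (0.97, adjusted p = 0.0439) higher. The values of the 2 groups did not overlap for 12 of the 27 (44.4%, against 34.3% of all genes tested): 4 lay above (18% of all genes) and 8 below (16.3%). The median log2 fold change was -0.27 over the tested members and 0.04 over all genes.

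The clones were set against untreated cells to ask whether mutants from a resistance screen differ from their parent. Neither kind of clone had a member called by edgeR. For Sufu clones, 28 members were tested and 0 had an adjusted p under 0.05 (0% of 13854 genes); 4 had an unadjusted p under 0.05 (9.68% of all genes). DESeq2 called Nrp1 lower and Sema4f higher, 2 members, where it called 2.4% of genes. Groups did not overlap for 7 members (25%, against 26.7% of all genes), 4 above (11.9% of all genes) and 3 below (14.8%), and the median log2 fold change was 0.22, against 0 over all genes. The 7, and the 4 with an unadjusted p under 0.05, include Sema3e, which passed the count filter only through the Sufu libraries. For Ofd1 clones, 27 members were tested and 0 were called, where 0.363% of 13779 genes were; 5 had an unadjusted p under 0.05 (13.8% of all genes). DESeq2 called 5, where it called 5.46% of genes: Nrp2, Sema4d, Sema4f and Sema5a higher and Sema6d lower. Groups did not overlap for 4 members (14.8%, against 13.4% of all genes), 3 above (6.17% of all genes) and 1 below (7.25%), and the median was 0.12, against 0.01 over all genes.

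The clones were also set against treated parental cells. Ofd1 clones had 4 members higher and 1 lower: Plxna2, Nrp2, Sema4d and Plxnd1 rose and Sema4g fell relative to treated cells. Of 27 members tested, those 5 had an adjusted p under 0.05 in edgeR's test, where 6.42% of 14014 genes were called, 3.97% higher and 2.45% lower; 14 members had an unadjusted p under 0.05, where 28.7% of all genes did, and DESeq2 called 12, 8 higher and 4 lower, where it called 17.6% of genes. Groups did not overlap for 15 members (55.6%, against 38.3% of all genes), 11 above (19% of all genes) and 4 below (19.3%), and the median log2 fold change was 0.33, against -0.01 over all genes. For Sufu clones over treated cells, 28 members were tested and 0 were called by edgeR, where 0.11% of 13613 genes were; 11 had an unadjusted p under 0.05, where 14% of all genes did, and DESeq2 called 6, 4 higher and 2 lower, where it called 5.59% of genes. Groups did not overlap for 17 members (60.7%, against 49.3% of all genes), 12 above (23.5% of all genes) and 5 below (25.9%), and the median was 0.48, against -0.03 over all genes. The 17, and the 11 with an unadjusted p under 0.05, also include Sema3e. Without sonidegib replicate 2, which leaves 1 treated library assumed to vary like the clones, none of the 5 calls held and the adjusted p ran from 0.0552 to 0.148; the log2 fold changes were then 2.91 for Nrp2, 2.69 for Plxna2, 1.88 for Sema4d, 0.88 for Plxnd1 and -1.41 for Sema4g. Nrp2, Plxna2 and Sema4d kept their call with any other single library left out and with the R14 pair summed, which the calls of Plxnd1 and Sema4g did not.

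**Figure D2:**
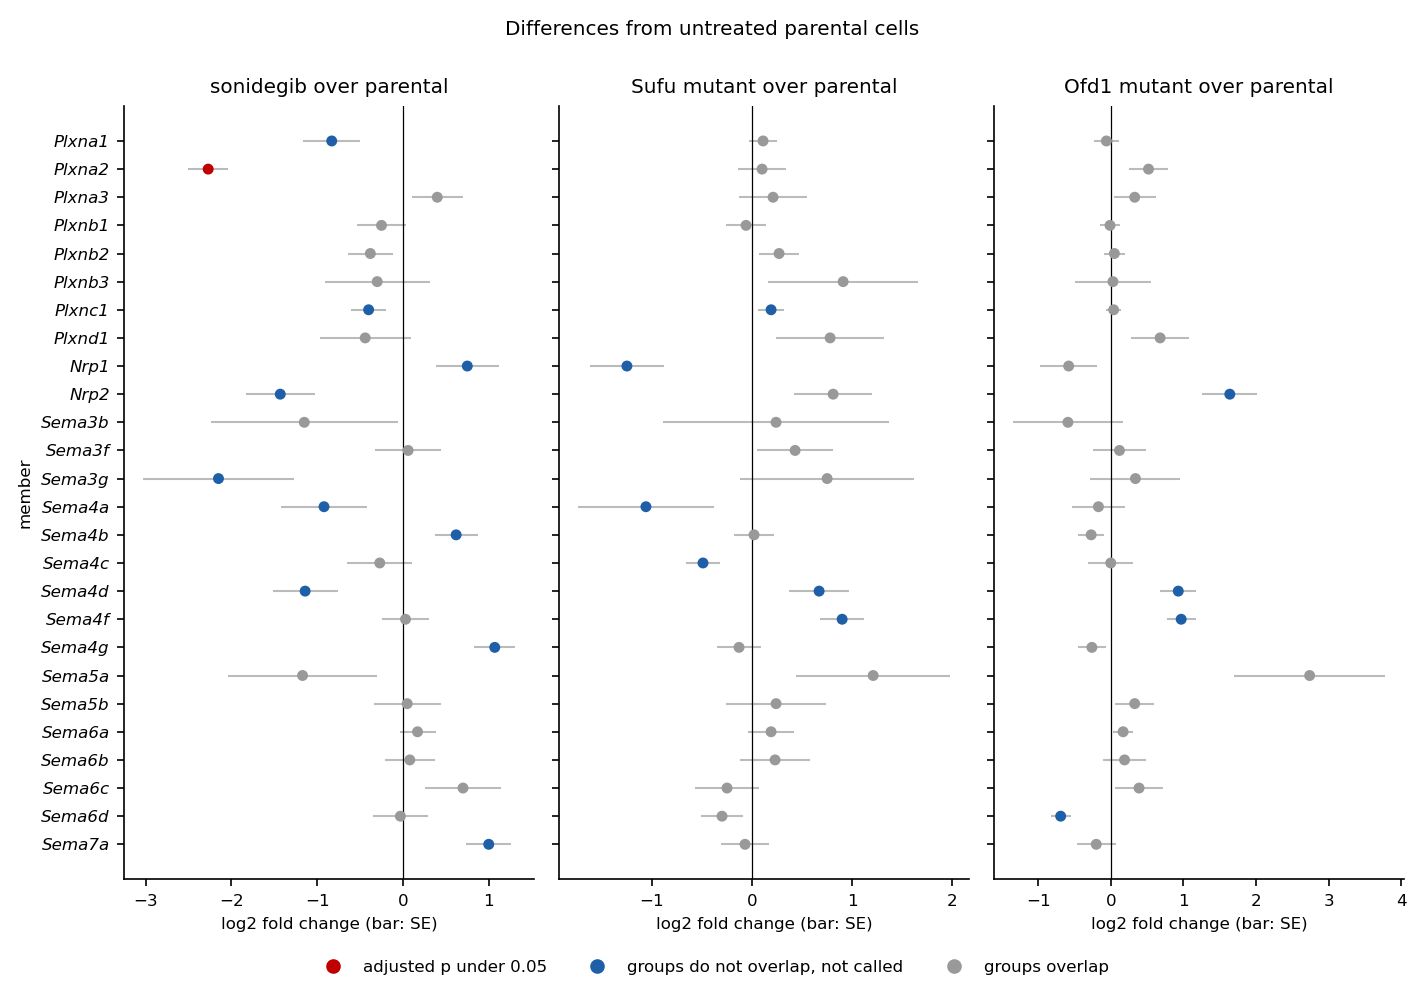
Log2 fold change over untreated parental cells for the 26 members tested in all 3 comparisons that reached 1 CPM in a group, with 1 standard error as bars; red marks an adjusted p under 0.05 in edgeR's quasi-likelihood test, blue marks groups that do not overlap without such a call, and grey marks groups that overlap. The single red point is Plxna2 after sonidegib, at -2.27; the horizontal scales differ between panels.

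The class A plexins pair with neuropilins for class 3 semaphorins and bind class 6 semaphorins directly. Plxna2, a receptor for Sema6a, was at 56.6 and 51.3 CPM after sonidegib, at 343.1 CPM in Sufu clone R13 and 203.5 CPM in R1, at 527.5 and 268.1 CPM in Ofd1 clone R14, 240.7 CPM in R16 and 438.4 CPM in R25, and at 226.5, 263.8 and 285.6 CPM in parental cells. The treated libraries were lower than each of the other 9 libraries and close to each other, while the clones spread on both sides of the parental range. The log2 fold change after sonidegib was -2.27 ± 0.23 (SE; adjusted p = 0.0411, edgeR's quasi-likelihood test), for means of 54 ± 3.74 CPM in treated cells and 258.7 ± 29.9 CPM in untreated cells (SD, n = 2 and 3). The call was lost in edgeR's test without sonidegib replicate 2 (adjusted p = 0.131) or without parental replicate 1, 2 or 3 (adjusted p of 0.169, 0.209 and 0.225), while the log2 fold change stayed between -2.39 and -2.21. With an offset for transcript length it was -1.78, with an adjusted p of 0.0477 in the same test, and DESeq2 gave an adjusted p of 4.79e-18. In Ofd1 clones Plxna2 rose by 2.79 ± 0.39 over treated cells on the log2 scale (adjusted p = 0.0143, edgeR), and over untreated cells the value was 0.52 ± 0.27 (adjusted p = 0.451). In Sufu clones it was 2.37 ± 0.38 over treated cells (adjusted p = 0.0972, edgeR; 2.27 without sonidegib replicate 2) and 0.10 ± 0.24 over untreated cells (adjusted p = 0.922). The 2 libraries of clone R14 alone differed 1.97-fold in Plxna2.

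Plxna1, a receptor for Sema6d and a partner of neuropilins, was at 92.7 and 46 CPM after sonidegib, 127.4 and 135.6 CPM in Sufu clones, 95 to 154.7 CPM in Ofd1 clones and 111.6 to 137.3 CPM in parental cells. Both treated libraries lay below the other 9, and the difference from untreated cells did not pass the test (log2 fold change -0.83 ± 0.33, adjusted p = 0.345, edgeR); for Plxna1 it was -0.43 without sonidegib replicate 2. Plxna3, which acts with Nrp2 in the Sema3f response, was at 60.2 and 57.1 CPM after sonidegib, 38.1 and 63.4 CPM in Sufu clones, 40.8 to 73.6 CPM in Ofd1 clones and 31.1 to 60.6 CPM in parental cells, so that all groups overlapped. No other class A plexin was called after sonidegib, and Plxna4, at 1 to 4 counts in the treated libraries and 11 to 28 in the parental libraries, gave -2.64 ± 0.85 (adjusted p = 0.273, edgeR).

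The class B plexins are receptors for class 4 semaphorins, and Plxnb2 is the one known for its part in cerebellar granule cell precursors. Plxnb2 was at 1192.3 and 898.4 CPM after sonidegib, 1394.5 and 1845.2 CPM in Sufu clones R13 and R1, 1694.3, 1390.5, 1262.3 and 1238.8 CPM in the Ofd1 libraries, and 1520.8, 1425.6 and 1123.1 CPM in parental cells. Treated and parental values overlapped (log2 fold change -0.38 ± 0.26, adjusted p = 0.49, edgeR), as did those of both kinds of clone and the parent. Plxnb1, the main receptor for Sema4d, ranged from 30.9 to 55.9 CPM over the 11 libraries, with overlap in each of the 6 comparisons. Plxnb3, a receptor for Sema5a, was at 0.601 and 0.596 CPM after sonidegib, 0.521 CPM in Sufu clone R13 and 2.23 CPM in R1, 0.683 and 0.681 CPM in clone R14, 1.27 CPM in R16 and 0.363 CPM in R25, and 0.443, 0.611 and 1.15 CPM in parental cells. It reached a group mean of 1 CPM through clone R1 alone.

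Plxnc1, the receptor for Sema7a, was at 407.9 and 424.8 CPM after sonidegib, 627.7 and 608.8 CPM in Sufu clones, 605.2, 522.1, 534.8 and 576.7 CPM in Ofd1 clones and 553.4, 566.3 and 523.4 CPM in parental cells. Treated cells lay below the other 9 libraries and the Sufu clones lay above the parental range, by less than the test required (log2 fold changes over parental cells of -0.40 ± 0.20, adjusted p = 0.401, and 0.19 ± 0.13, adjusted p = 0.664, edgeR). Plxnd1 is the receptor that Sema3e binds without a neuropilin. It was at 151.7 and 110.3 CPM after sonidegib, 229.2 CPM in Sufu clone R13 and 374.3 CPM in R1, 359.7 and 268.8 CPM in Ofd1 clone R14, 236.6 CPM in R16 and 264.3 CPM in R25, and 92.8, 118.4 and 320.9 CPM in parental cells. Parental replicate 3 was 2.71 times as high as parental replicate 2 and lay within the range of the clones, and the other 2 parental libraries lay near the treated ones. Over treated cells, Plxnd1 rose in Ofd1 clones by 1.12 ± 0.25 on the log2 scale (adjusted p = 0.0401, edgeR). Over untreated cells the value was 0.68 ± 0.40 (adjusted p = 0.508, edgeR), 1.42 without parental replicate 3 (adjusted p = 0.024) and -0.18 with parental replicate 3 as the only control (adjusted p = 0.821), the last being chosen after seeing the data.

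**Figure D3:**
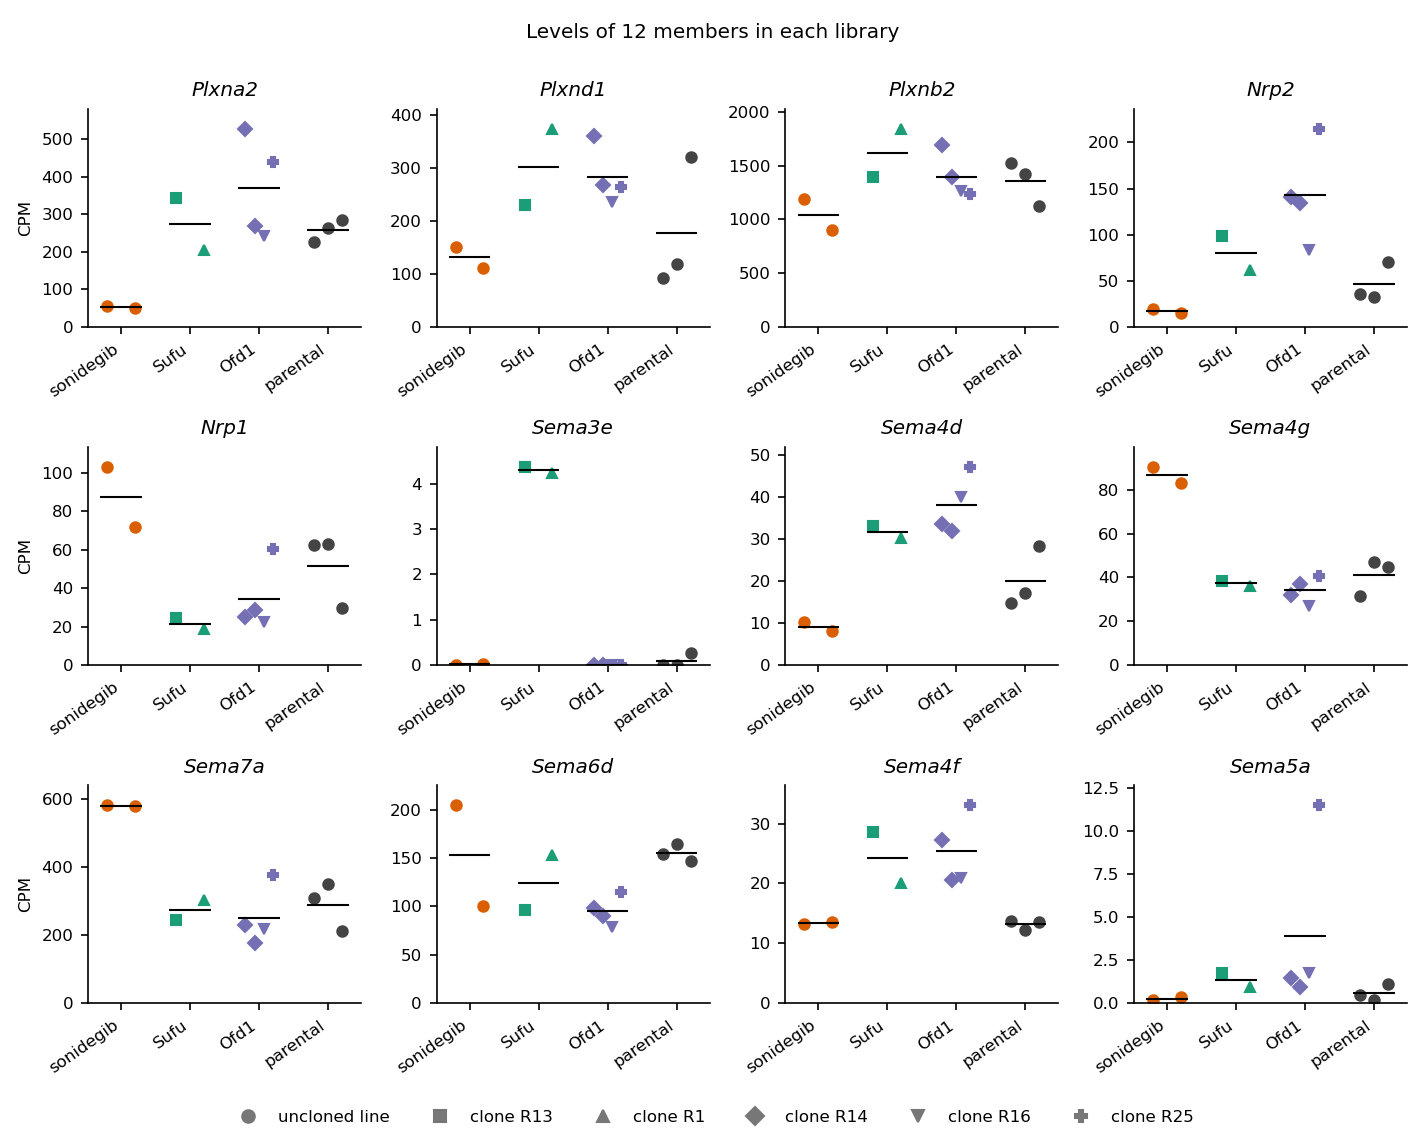
CPM (linear axes from 0) of 12 members in each library, by group, with a horizontal line at the group mean; symbols give the clone. Sonidegib libraries are lowest for Plxna2, Nrp2 and Sema4d and highest for Sema4g and Sema7a, parental replicate 3 lies with the clones for Plxnd1, and clone R25 is far above the other libraries for Sema5a.

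The treated libraries were at opposite ends of the range for the 2 neuropilins. Nrp2, which binds Sema3f, was at 19 and 15.4 CPM after sonidegib, 98.8 CPM in Sufu clone R13 and 61.8 CPM in R1, 140.6 and 134.1 CPM in Ofd1 clone R14, 83.8 CPM in R16 and 215 CPM in R25, and 35.7, 32.1 and 70.9 CPM in parental cells. The treated libraries were the lowest of the 11 and each Ofd1 library was above each parental library. Nrp1, which binds Sema3a and vascular endothelial growth factor A, was at 103 and 71.7 CPM after sonidegib, 24.4 CPM in R13 and 18.7 CPM in R1, 25.2 and 28.7 CPM in R14, 22.4 CPM in R16 and 60.2 CPM in R25, and 62.6, 62.7 and 29.6 CPM in parental cells. For Nrp1 the treated libraries were the highest of the 11. Among the clones the order was alike for both: the Ofd1 mean was above the Sufu mean for Nrp2 (143.4 and 80.3 CPM) and for Nrp1 (34.1 and 21.5 CPM), and R25 was the highest clone for each.

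Nrp2 rose in Ofd1 clones over treated cells by 3.08 ± 0.41 on the log2 scale (adjusted p = 0.0135, edgeR). In the other comparisons its values were 2.25 ± 0.38 in Sufu clones over treated cells (adjusted p = 0.112), 1.64 ± 0.38 in Ofd1 clones over untreated cells (adjusted p = 0.115), 0.81 ± 0.39 in Sufu clones over untreated cells (adjusted p = 0.575) and -1.43 ± 0.40 in treated over untreated cells (adjusted p = 0.22). The last was -1.30 without sonidegib replicate 2 and -1.01 without parental replicate 3, Sufu over treated cells gave Nrp2 2.08 without that sonidegib library, and Sufu over untreated cells gave it 1.26 without that parental library (adjusted p = 0.146, edgeR). For Ofd1 clones over untreated cells, leaving out parental replicate 3 gave Nrp2 a log2 fold change of 2.08 (adjusted p = 0.0384, edgeR), and that library as the only control gave 1.02. Nrp1 passed the edgeR test in no comparison: its log2 fold changes were 0.75 ± 0.37 in treated over untreated cells (adjusted p = 0.396), -1.25 ± 0.37 in Sufu clones over untreated cells (adjusted p = 0.431), -1.99 ± 0.36 in Sufu clones over treated cells (adjusted p = 0.125) and -1.34 ± 0.41 in Ofd1 clones over treated cells (adjusted p = 0.0878). In the last of these, leaving out clone R25 gave Nrp1 -1.77 (adjusted p = 0.0251, edgeR). Sufu clones gave Nrp1 -1.52 over untreated cells without parental replicate 3 (adjusted p = 0.0666, edgeR) and -2.26 over treated cells without sonidegib replicate 2 (adjusted p = 0.279).

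The ratio of the neuropilins within a library, which does not depend on library size, separated the libraries into those with more Nrp1 and those with more Nrp2. Nrp2 over Nrp1 in CPM was 0.184 and 0.215 after sonidegib, 4.05 and 3.3 in Sufu clones, 5.58, 4.67, 3.73 and 3.57 in Ofd1 clones and 0.571, 0.512 and 2.39 in parental cells. Treated cells and parental replicates 1 and 2 were below 1, and parental replicate 3 was above 1 with all clones. Over the 27 members that reached 1 CPM in a group, parental replicate 3 was nearer to the mean of the clones than to the mean of parental replicates 1 and 2 for 19 (70.4%), against 58.6% of 13028 genes.

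**Figure D4:**
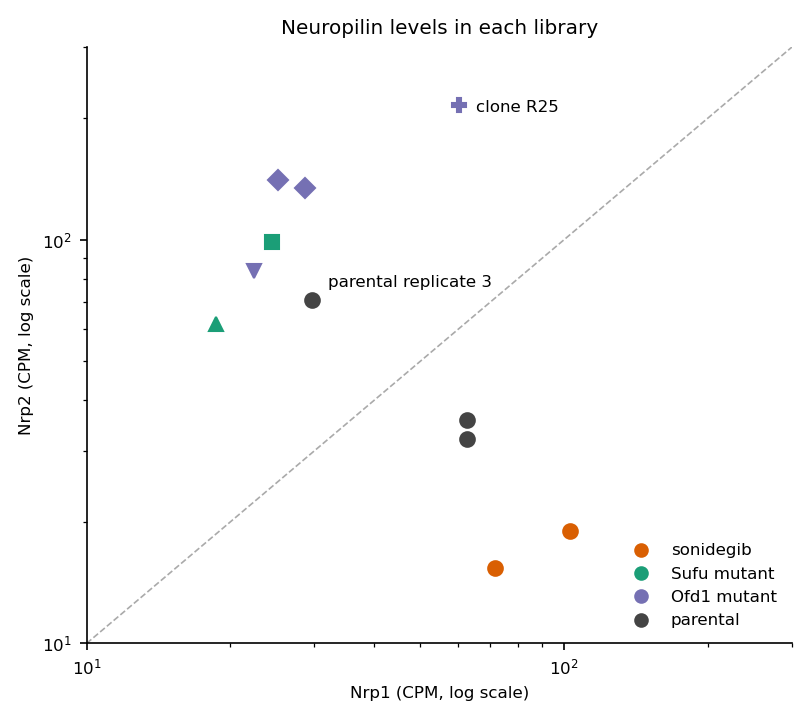
Nrp2 against Nrp1, both in CPM on log axes, for each of the 11 libraries; the dashed line marks equal levels, and colours give the group. All 6 clone libraries and parental replicate 3 lie above the line, and the 2 sonidegib libraries and the other 2 parental libraries lie below it.

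The secreted class 3 ligands were scarce except Sema3f, the Nrp2 ligand, which stayed between 5.9 and 20.4 CPM and overlapped between groups in each comparison. Sema3e, the Plxnd1 ligand, was at 1 CPM or more in the 2 Sufu clones and in none of the other 9 libraries. It had 0 counts and 1 count in the treated libraries, 109 counts (4.37 CPM) in Sufu clone R13 and 101 counts (4.24 CPM) in R1, 0 counts in each of the 4 Ofd1 libraries, and 0, 0 and 9 counts in the parental libraries, where the 9 were 0.266 CPM in replicate 3. Both Sufu clones thus held it at like levels and the 4 Ofd1 libraries held none, which allows up to 0.0224 CPM over that group. Pooled over libraries, Sema3e was at least 192.1-fold higher in Sufu than in Ofd1 clones, with the Ofd1 group set at 3 counts over its 4 libraries, and 49.3-fold higher in Sufu clones than in parental cells (exact 95% interval 25.5 to 109.4). The 49.3-fold value rests on parental replicate 3, which holds all 9 parental counts; against parental replicates 1 and 2, set at 3 counts over both, Sema3e was at least 99.4-fold higher, a comparison chosen after seeing the data. These limits cover counting error only, because counts were pooled over libraries, and leave out the spread between clones and between libraries. Counting error itself may be larger than they show, because several reads can come from 1 molecule and no molecular identifiers were used.

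Sema3e passed the count filter only in the 3 comparisons that include the Sufu libraries, where it is high, and it was singled out with its values known, so its tests are given as values and support nothing. It passed edgeR's test in none of them. The adjusted p was 0.327 in Sufu clones over untreated cells (log2 fold change 5.56 ± 1.23), 0.0767 in Sufu clones over treated cells (7.77 ± 1.08) and 0.268 in Ofd1 over Sufu clones. Without parental replicate 3 the first became 0.0651, and without sonidegib replicate 2 the adjusted p of the second became 0.292. A fitted fold change against a group at 0 depends on the prior count and is not a bound, so none is given for Ofd1 over Sufu clones. None is given for the fits with a library left out either, because the remaining parental or treated libraries held 0 counts. Sema3g, which binds Nrp2, was at 0.2 and 0.238 CPM after sonidegib, 0.721 CPM in R13 and 2.56 CPM in R1, 0.776 and 2.04 CPM in R14, 1.33 CPM in R16 and 0.804 CPM in R25, and 0.57, 0.398 and 1.98 CPM in parental cells. The treated libraries were the lowest of the 11, with a log2 fold change of -2.15 ± 0.88 over untreated cells (adjusted p = 0.353, edgeR), which was -2.29 without sonidegib replicate 2 and -1.15 without parental replicate 3.

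Among the class 4 ligands of the class B plexins, 2 passed edgeR's test, in opposite directions. Sema4d, the ligand of Plxnb1, was at 10.3 and 7.98 CPM after sonidegib, 33.1 CPM in Sufu clone R13 and 30.2 CPM in R1, 33.5 and 31.8 CPM in Ofd1 clone R14, 40 CPM in R16 and 47.1 CPM in R25, and 14.8, 17.2 and 28.2 CPM in parental cells. The order of the groups was the same as for Nrp2, with treated cells lowest, Ofd1 clones highest and parental replicate 3 above the other 2 parental libraries. Sema4d rose in Ofd1 clones over treated cells by 2.08 ± 0.27 on the log2 scale (adjusted p = 0.0135, edgeR). Over untreated cells it gave 0.93 ± 0.25 in Ofd1 clones (adjusted p = 0.154, and 0.0336 without parental replicate 3, where it was 1.25), 0.67 ± 0.30 in Sufu clones (adjusted p = 0.545) and -1.14 ± 0.38 after sonidegib (adjusted p = 0.285). Without parental replicate 3 Sema4d gave 1.00 in Sufu clones (adjusted p = 0.122, edgeR) and -0.84 after sonidegib, and without sonidegib replicate 2 treated over untreated cells gave -0.98.

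Sema4g, a ligand of Plxnb2, was at 90.5 and 82.9 CPM after sonidegib, 38.4 CPM in R13 and 36.1 CPM in R1, 32 and 37.1 CPM in R14, 27.1 CPM in R16 and 40.8 CPM in R25, and 31.4, 47.1 and 44.9 CPM in parental cells. The treated libraries stood above the other 9, which overlapped among themselves. Sema4g fell by 1.32 ± 0.21 on the log2 scale in Ofd1 clones relative to treated cells (adjusted p = 0.0185, edgeR), and treated over untreated cells gave 1.07 ± 0.24 (adjusted p = 0.15; 1.12 without sonidegib replicate 2 and 1.11 without parental replicate 3). Sema4f was at 13.2 and 13.6 CPM after sonidegib, 28.6 and 20 CPM in Sufu clones, 27.3, 20.6, 20.9 and 33.1 CPM in Ofd1 clones and 13.7, 12.2 and 13.6 CPM in parental cells; it was chosen after its values were seen. All 6 clone libraries lay above all 5 libraries of the parental line, with log2 fold changes over untreated cells of 0.90 ± 0.22 in Sufu clones (adjusted p = 0.355) and 0.97 ± 0.20 in Ofd1 clones (adjusted p = 0.0879, edgeR). DESeq2 called Sema4f higher in both kinds of clone over untreated cells. Sema4f gave 0.92 with parental replicate 3 as the only control, so its value did not turn on that library. Sema4a was at 0.768 and 0.864 CPM after sonidegib, 1.16 CPM in R13 and 0.294 CPM in R1, 0.807 to 1.82 CPM in Ofd1 clones and 1.2, 1.38 and 2.04 CPM in parental cells, and passed no test. Sema4b ranged from 17.4 to 45.9 CPM, with both treated libraries highest (log2 fold change 0.62 ± 0.25 over untreated cells, adjusted p = 0.347, edgeR).

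Of the class 5 members, which carry thrombospondin repeats outside the cell, Sema5b stayed between 5.21 and 15.2 CPM. Sema5a was at 0.167 and 0.358 CPM after sonidegib, 1.76 CPM in R13 and 0.966 CPM in R1, 1.46 and 0.928 CPM in R14, 1.76 CPM in R16 and 11.5 CPM in R25, and 0.506, 0.186 and 1.09 CPM in parental cells. Clone R25 was 6.53 times as high as the next Ofd1 library. The log2 fold change in Ofd1 clones was 2.74 ± 1.04 over untreated cells (adjusted p = 0.291) and 3.90 ± 1.30 over treated cells (adjusted p = 0.107, edgeR), and with R25 left out these values were 1.22 and 2.39.

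Sema6a, a ligand of Plxna2 and Plxna4, was at 77.2 and 67 CPM after sonidegib, 55.1 and 89 CPM in Sufu clones, 74.7, 60.4, 69.7 and 81.1 CPM in Ofd1 clones and 65.3, 70.1 and 56.4 CPM in parental cells. Groups overlapped for Sema6a in each of the 6 comparisons, while its receptor Plxna2 was lower after sonidegib. Treated over untreated cells gave Sema6a 0.17 ± 0.21 on the log2 scale (adjusted p = 0.703, edgeR). Sema6d, a ligand of Plxna1, was at 204.8 and 100.9 CPM after sonidegib, 96.4 and 152.8 CPM in Sufu clones, 98.3, 90.3, 78.4 and 115.4 CPM in Ofd1 clones and 154.3, 164.4 and 147.1 CPM in parental cells. Each Ofd1 library was below each parental library, with a log2 fold change of -0.69 ± 0.14 (adjusted p = 0.084, edgeR); without clone R25 it was -0.80 (adjusted p = 0.0286). Sema6b and Sema6c ranged from 7.03 to 18.5 and from 5.32 to 15.7 CPM, with no call in the 6 comparisons.

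Sema7a, the anchored ligand of Plxnc1 that also binds integrins, was at 581.3 and 578.1 CPM after sonidegib, 243.9 CPM in R13 and 301.8 CPM in R1, 230.2 and 178.1 CPM in R14, 217.2 CPM in R16 and 375.3 CPM in R25, and 307.9, 348.3 and 211 CPM in parental cells. The treated libraries agreed closely and stood above the other 9, while Plxnc1 was lowest in the same 2 libraries. Neither difference passed edgeR's test against untreated cells: Sema7a gave 1.00 ± 0.26 (adjusted p = 0.2), which was 0.99 without sonidegib replicate 2 and 0.79 without parental replicate 3. In Ofd1 clones over treated cells Sema7a gave -1.19 ± 0.29 (adjusted p = 0.0528), just outside the threshold. Of the listed astrocyte markers, 3 of 5 were at 1 CPM or more in each library and the other 2 were under it, and their sum also differed by group: 343.5 to 385.5 CPM after sonidegib, 99.5 to 118.7 CPM in Sufu clones, 124.7 to 139.3 CPM in Ofd1 clones and 183 to 248.3 CPM in parental cells. Gfap, an intermediate filament of astrocytes, was at 103.3 ± 3.64 CPM in treated cells and 21.8 ± 11.9 CPM in untreated cells (SD, n = 2 and 3). Slc1a3 made up most of the sum, at 250.8 ± 43 CPM in treated cells and 175 ± 43.1 CPM in untreated cells. The other listed markers did not rise: S100b was at 10.3 ± 9.73 and 10.7 ± 3.12 CPM, and Aldh1l1 at 0.0334 and 0.0779 CPM. Aqp4 had 0 counts in both groups. Whether cells with such markers had a part in the levels of Sema7a, Sema4g and Nrp1 was not tested.

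The Ofd1 and Sufu clones were compared with each other to ask whether the family differed by mutated gene. No member was called among 28 tested, where 0.00713% of 14026 genes were. Only 1, Sema3e, had an unadjusted p under 0.05 (8.93% of all genes did), and DESeq2 called that member alone, where it called 1.84% of genes. Sema3e passed the count filter only through the Sufu libraries and was singled out with its values known, so neither result is support. Groups did not overlap for 3 members (10.7%, against 18.2% of all genes): Sema4c, named after its values were seen, above (9.85% of all genes were above) and Plxnc1 and Sema3e below (8.34% of all genes). The median log2 fold change was -0.04, against 0 over all genes. Within the Ofd1 group, clones differed in single members. Over R14 (mean of its pair), R16 and R25, the log2 range among members reaching 1 CPM was widest for Sema5a at 3.23, Plxnb3 at 1.64 and Nrp1 at 1.42, and narrowest among the named plexins for Plxnc1 at 0.11. The 2 libraries of R14 differed 2.66-fold in Sema3f, against 1.97-fold in Plxna2.

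The wider pathway was followed through lists of genes not in the family, which were drawn up with earlier results of these data known. In 5 of the 6 comparisons, no gene passed edgeR's test in the lists of co-receptors and partners (11 of 15 listed were tested in most comparisons), vascular endothelial growth factor ligands of neuropilins (4 of 5), cytosolic transducers (34 of 35) and netrin and slit guidance genes (14 of 18 in most). In those 5 comparisons edgeR called 0% to 0.363% of all genes, so the absence says little about the lists. The calls came in Ofd1 clones over treated cells, where 3.97% of all genes rose and 2.45% fell. Among partners, 2 of 11 rose: Nrcam, an adhesion molecule that partners Nrp2, at 50.1 ± 16.5 CPM in Ofd1 clones and 16.8 ± 5 CPM in treated cells (log2 fold change 1.60, adjusted p = 0.0448), and Plxdc2, a transmembrane protein with a plexin-like domain, at 7.53 ± 3.45 CPM in Ofd1 clones and 0.778 ± 0.174 CPM in treated cells (3.29, adjusted p = 0.0249; SD, n = 4 and 2). The median over the list was 0.66, against -0.01 over all genes. Nrcam was at 56.8 ± 12.3 CPM in Sufu clones and 27.4 ± 2.41 CPM in parental cells. Plxdc2 was at 1.59 ± 2.01 CPM in Sufu clones and 1.53 ± 0.824 CPM in parental cells.

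Among 34 transducers, 2 rose and 2 fell in Ofd1 clones relative to treated cells, where 3.97% of all genes rose and 2.45% fell, with a list median of -0.21. Mras, a Ras-type GTPase of the kind plexins act on, was at 93.8 ± 9.49 CPM in Ofd1 clones, against 37 ± 1.31 CPM in treated cells (log2 fold change 1.36, adjusted p = 0.014, edgeR). Sufu clones had 122.6 ± 0.91 CPM of Mras and parental cells 96.3 ± 27.8 CPM, so the Ofd1 mean was near the parental mean. Mical2, an actin-oxidising enzyme of the family first tied to plexins in flies, gave 1.60 (adjusted p = 0.0374, edgeR). Mical2 means were 27.3 CPM in treated cells, 125.4 CPM in Sufu clones, 82.2 CPM in Ofd1 clones and 56.1 CPM in parental cells. Among those that fell, Dpysl2, the collapsin response mediator Crmp2, gave -1.68 (adjusted p = 0.0498, edgeR). Treated replicates of Dpysl2 were far apart, at 253.3 ± 199.1 CPM. Its means were 61.5 CPM in Sufu clones, 77.5 CPM in Ofd1 clones and 97.8 CPM in parental cells. Of 15 netrin and slit genes 1 rose, where 3.97% of all genes did, and the list median was 0.24. It was the secreted cue Slit3, at 12.6 ± 3.03 CPM in Ofd1 clones and 0.764 ± 0.184 CPM in treated cells (4.06, adjusted p = 0.00738, edgeR). Sufu clones had 14.8 ± 3.04 CPM of Slit3 and parental cells 5.32 ± 4.73 CPM. None of the 4 growth factor ligands tested was called in that comparison.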

How the data were processed

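Poly(A) RNA of 11 SMB21 libraries was made into stranded libraries and read from 1 end at 75 bp, per the labels. The authors deposited 1 table of raw read counts per gene symbol; per the submitters' processing notes, STAR, DESeq2 and the mm9 build were used, with no counting tool, annotation or version stated in those notes or labels. An entry with no gene name took 0.0131% to 0.0192% of counts and was left out. Levels are CPM on the library size scaled by edgeR's TMM factors. Each of the 6 comparisons was fitted over all genes on the libraries of its 2 groups with edgeR 4.0.16 in R 4.3.3 (filterByExpr, robust quasi-likelihood fit, two-sided, Benjamini-Hochberg adjustment over all genes tested, threshold 0.05); the SE is the log2 fold change divided by the root of F. DESeq2 1.42.0, RLE factors, no filter, 1 fit over 11 libraries, a length offset (GENCODE M21 exon lengths for 93.7% of genes), the R14 pair summed, replicate blocks and single libraries left out were tried. Tests were run on simulated data with 1 setting of spread for all genes and independent libraries. That check does not cover stray libraries or 2 libraries of 1 clone. Members, lists and tests were chosen with earlier results of these data known. Values in each library were given for members called in a comparison, Plxna2 and Sema3e, the 10 with the highest mean CPM, those with an absolute log2 fold change of at least 1 and no overlap, and the 3 with the widest range over Ofd1 clones; Plxna4, Plxnb1, Sema4b, Sema4c and Sema4f were added after their values were seen. The labels call the parental, treated and R14 libraries biological replicates without naming separate cultures, so p-values measure the spread between those libraries, which may be technical; R13, R1, R16 and R25 are separate clones. The values of 1 listed transducer and 1 listed marker are not reported here.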

Additional observations from a re-analysis of the deposited data

Results flagged for a closer look

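Of 26 members tested for a stray library within the 4 Ofd1 libraries, 3 had 1 library far from the others, and all 3 times it was clone R25. Chance alone flags about 1 in 20 groups of 4 independent values. Clone R14 gave more than 1 of these libraries, so that rate does not apply directly here. The share flagged over all genes was not counted, so the flags are not shown to be particular to the family. Sema5a was at 11.5 CPM in R25, where the nearest other Ofd1 library had 1.76 CPM, a gap of 0.922 of the group's range, above Dixon's critical value for a group of this size. Sema4c was at 82.3 CPM in R25 and 39.3 CPM in the nearest library (0.921 of the range). Nrp1 was at 60.2 CPM in R25 and 28.7 CPM in the nearest library (0.834 of the range).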

How the results depend on the processing

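Over 29 member-and-comparison values tried under the alternatives, 264 of 327 kept their direction and their side of the threshold, 44 passed it where the reported value did not, 19 lost it and 0 changed direction. Each of the 29 was called, or had an absolute log2 fold change of at least 1 and no overlap between groups. Such a choice favours a stable direction, so the 0 does not extend to other values. Plxnd1 in Ofd1 clones over untreated cells, outside the 29, changed sign when parental replicate 3 alone served as control. The counts of called members moved more. For sonidegib over parental cells, 1 member was called, against 4 by DESeq2, 2 with 1 fit over all 11 libraries, 0 to 4 with single libraries left out (4 without sonidegib replicate 1, where 23% of all genes were called), and 8 for sonidegib replicate 1 against parental replicates 1 and 2 (10.1% of all genes; chosen after seeing the data). For Sufu over parental cells, 0 became 2 by DESeq2. For Ofd1 over parental cells, 0 became 5 by DESeq2 and 0 to 3 with single libraries left out. For Ofd1 over Sufu clones, 0 became 1 by DESeq2. For Sufu over sonidegib, 0 became 6 by DESeq2, 4 with no filter, 7 with 1 fit over all libraries and 0 to 3 with single libraries left out. For Ofd1 over sonidegib, 5 became 12 by DESeq2, 8 with 1 fit over all libraries (13.7% of all genes), 8 with a length offset (9.08%), 3 with the R14 pair summed and 0 to 6 with single libraries left out. Where no share of all genes stands beside a count, the count cannot be read as a result about the family. The cause of these differences was not tested. The replicate numbers were not shown to pair libraries (correlations of same-numbered deviations -0.09, -0.0321 and 0.164 over 10941 genes). Fits with a replicate block kept only replicates 1 and 2 of parental and treated cells and, of the Ofd1 clones, only R14. In these fits 7 members were called for R14 over parental cells (11.7% of all genes) and 7 for R14 over sonidegib (5.69%). Those are values of 1 clone and not of the Ofd1 group. Sonidegib over parental cells had 1 member called with the block (0.786%). The number of members reaching 1 CPM, 27, ran from 25 to 28 with single libraries left out and was 28 at a limit of 0.5 CPM and 21 at 5 CPM. Members with fewer than 10 counts in each library (Sema3a, Sema3c and Sema3d) gave no test at this depth.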

Other observations

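Of the scarce class 3 semaphorins, Sema3d, Sema3a, Sema3e and Sema3c are on chromosome 5, between 12383161 and 17730268 on GRCm38.p6, a build other than the one the counts were made on. Sema3a had 0 and 0 counts after sonidegib, 3 and 3 in Sufu clones R13 and R1, 0 in each Ofd1 library and 2, 0 and 0 in parental libraries. Sema3d had 0 counts in each treated library, 0 and 6 in Sufu clones R13 and R1, at most 1 in an Ofd1 library and 0 in each parental library. Sema3c had 0 counts in each treated library, 1 and 0 in Sufu clones R13 and R1, 0 in each Ofd1 library and 4, 2 and 0 in parental libraries. None of these 3 passed the count filter, so only Sema3e of these 4 had a test. Sema3b was at 2.19 CPM in parental replicate 3 and 0.292 CPM in parental replicate 2, a ratio of 7.48, and passed no test.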
